A study of Mus musculus with 6 samples.

Results

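The 10 genes described here encode the receptors and coregulators that set the transcription of fatty acid oxidation and mitochondrial genes. They are the PPAR receptors Ppara, Ppard and Pparg, their partners Rxra and Rxrb, the estrogen-related receptors Esrra and Esrrg, the coactivators Ppargc1a and Ppargc1b, and the corepressor Nrip1. They were taken by gene symbol, with earlier results of these data known, and they account for 10 of 23276 gene symbols and 27 of 54721 transcripts in the table. RNA was sequenced from whole kidneys of mice at post-natal day 22, with 3 kidneys labelled KspCre; Pkd1 F/RC (SKO) and 3 kidneys that also carry miR17∼92 F/F (DKO). All 6 kidneys share the Cre transgene and a Pkd1 genotype that pairs a floxed allele with a germline hypomorphic RC allele, so the SKO kidneys are the polycystic controls and no wild-type kidney was analysed here. Cre is driven by the Ksp-cadherin promoter of Cdh16 in tubule epithelium, so endothelial, stromal, glomerular and blood cells keep the floxed alleles. Cdh16 itself was listed at 480 CPM, the unit of read counts scaled to library size, or 167 CPM per kilobase.

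The study set DKO against SKO kidneys to ask which transcripts depend on miR-17∼92 in a cystic kidney. That comparison was not made here, because the columns that hold it are the authors' own results, and the value used was their mean over all 6 kidneys. The levels below therefore carry no SD and no n, and they do not say in which genotype a gene was higher. CPM scales the reads of a transcript to the total of its library, and CPM per kilobase is that value divided by the transcript length in kilobases. Levels of different genes were compared per kilobase, while CPM served for the minimum of 1 CPM and for the choice of the genes named from each list. These are bulk samples, in which fewer cells of a type and less RNA per cell cannot be told apart.

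PPARs are ligand-activated receptors that bind DNA as heterodimers with an RXR. PPARα is activated by fatty acids and drives their oxidation in mitochondria and peroxisomes, and it is abundant in the proximal tubule, which burns fatty acids to power reabsorption. The estrogen-related receptors have no known natural hormone and act on genes of the respiratory chain and the citric acid cycle. PGC-1 coactivators have no DNA-binding site of their own: they are recruited by PPARs and estrogen-related receptors. Nrip1, also known as RIP140, binds many of the same receptors and represses their targets.

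The deleted cluster gives the sequences that the study turns on, so its mature miRNAs are shown first, from RefSeq on GRCm38.p6, chromosome 14, plus strand. A miRNA recognises a transcript mostly through its seed, bases 2 to 8 from the 5′ end, printed in capitals. The 6 miRNAs fall into 4 seed families:
miR-17-5p: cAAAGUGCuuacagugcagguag
miR-20a-5p: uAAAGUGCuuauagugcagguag
miR-18a-5p: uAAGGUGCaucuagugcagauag
miR-19a-3p: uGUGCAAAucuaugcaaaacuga
miR-19b-3p: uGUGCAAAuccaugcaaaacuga
miR-92a-3p: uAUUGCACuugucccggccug
miR-17-5p and miR-20a-5p share a seed, as do miR-19a-3p and miR-19b-3p. The seed of miR-18a-5p differs from that of miR-17-5p at a single base.

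A 3′-UTR was annotated for all 10 genes, and 7-base matches to the 4 seeds were found in Ppara and Rxra. Ppara held 3 matches and Rxra held 1, while Ppard, Pparg, Rxrb, Ppargc1a, Ppargc1b, Esrra, Esrrg and Nrip1 held 0. The search covered 1 RefSeq transcript per gene, with a 3′-UTR of 320 bases for Nrip1 and 547 bases for Ppargc1b. Matches in longer forms of a gene were not sought. The matches are shown with the 15 bases before them and 1 base after, 5′ to 3′ on the plus strand of GRCm38, with the match in capitals:
Ppara miR-17 match: cctgaaaactaatctGCACTTTt
Ppara miR-18 match: atttcagagcaggttGCACCTTc
Ppara miR-19 match: acaggagagcagggaTTTGCACa
Rxra miR-19 match: agttgaccagccttgTTTGCACt
The Ppara windows lie in exon 8 of 8, at chr15:85801653-85801675 for miR-17, chr15:85802551-85802573 for miR-18 and chr15:85801320-85801342 for miR-19. The matches begin at bases 410, 1308 and 77 of a 3′-UTR of 1561 bases. The Rxra window lies in exon 10 of 10, at chr2:27760819-27760841, and its match begins at base 1146 of a 3′-UTR of 3269 bases. The miR-19 match of Ppara is followed by an A, which makes it an 8-base match, whereas the miR-17 match of Ppara is followed by a T. These are matches of letters in the reference sequence, and no binding was measured in the data used here. In reporter assays, the paper found that miR-17 and miR-19 mimics repressed the Ppara 3′-UTR, each through its own site.

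Ppara was the one member with a match to the seed of miR-17 and miR-20a (GCACTTT), 1 of 10 genes, beside 11.1% of 18872 annotated 3′-UTRs. The miR-18 match (GCACCTT) was found in 1 member and in 7.24% of 3′-UTRs. The miR-19 match (TTTGCAC) was found in 2 members and in 10.1% of 3′-UTRs, and the miR-92 match (GTGCAAT) in 0 members and in 5.99%. A match to any of the 4 seeds was present in 2 of 10 members and in 26.4% of all 3′-UTRs. Per length, the members held 4 matches in 16343 bases of 3′-UTR, or 0.245 per kilobase, beside 0.300 per kilobase over all 3′-UTRs. In the 3′-UTRs searched, the 10 genes together were thus not richer in these letters than other genes. The matches were unevenly placed among the members, with 3 of 4 in Ppara. The 3′-UTR of Ppargc1a was the longest, at 3930 bases with 0 matches, and that of Pparg the shortest, at 204 bases.

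**Figure D1:**
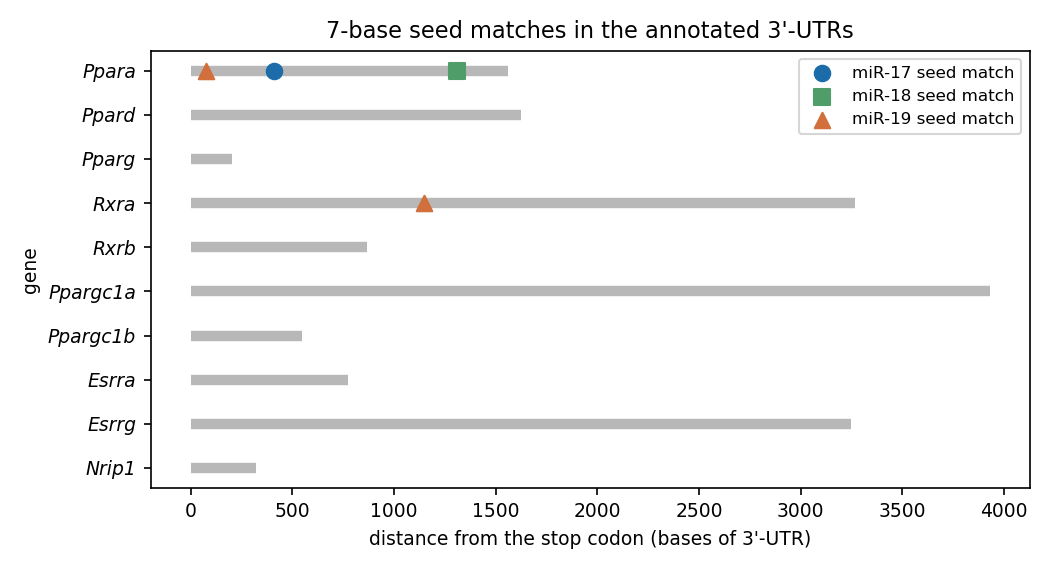
Annotated 3′-UTRs of the 10 genes drawn to scale from the stop codon (x axis, bases), with each 7-base seed match as a symbol for its miRNA family. Ppara carries matches of 3 families within 1561 bases, Rxra carries 1 match, and the other bars carry none, including the 3930 bases of Ppargc1a.

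With shorter matches more of the genes were reached. A 6-base match of miR-17 (CACTTT) occurred once in Ppara, Esrra and Nrip1 and 2 times in Esrrg, so in 4 of 10 members, beside 33.5% of all 3′-UTRs. With the 8-base form (GCACTTTA) it occurred in 0 members, beside 3.30% of all 3′-UTRs. The 8-base form of the miR-19 match (TTTGCACA) occurred in Ppara alone among the members, and in 4.53% of all 3′-UTRs. The 6-base match of miR-19 (TTGCAC) occurred in Ppara, Pparg, Rxra and Rxrb, 4 of 10 members, beside 21.5% of all 3′-UTRs. That of miR-92 (TGCAAT) occurred in 3 members, Rxra, Ppargc1a and Esrrg, beside 21.9%. That of miR-18 (CACCTT) occurred in 2 members, Ppara and Rxra, beside 28.8%.

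All 10 genes were listed at 1 CPM or more, as were 13001 of 23276 gene symbols (55.9%). The highest transcript of each member ranged from 4.51 CPM for Pparg to 75.1 CPM for Ppargc1a, with a median of 30.3 CPM. Per kilobase the 10 genes ranged from 1.15 for Ppargc1b to 13.4 for Ppara, with a median of 6.26 CPM per kilobase. The 12736 genes with a matched length and at least 1 CPM had a median of 3.998 CPM per kilobase, and 6 of 10 members lay above it. Those 6 were Ppara, Esrra, Ppargc1a, Esrrg, Rxra and Rxrb. Ppard, Nrip1, Pparg and Ppargc1b lay below it.

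**Figure D2:**
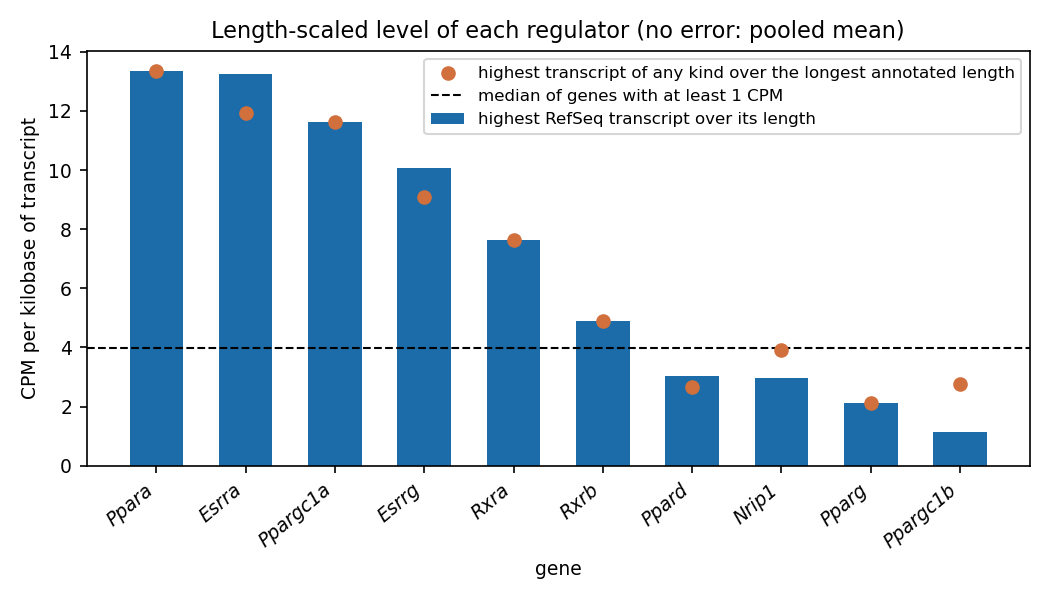
Length-scaled level of each gene (y axis, CPM per kilobase, from the authors' mean over 6 kidneys, so without error bars): bars give the highest RefSeq transcript over its own length, and orange points the highest transcript of any kind over the longest annotated length. Ppara (13.4) and Esrra (13.3) stand highest, the dashed line is the median of 3.998, and Ppargc1b is at 1.15 by the bar and 2.75 by the point.

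Of the PPARs, Ppara stood highest. Ppara (ENSMUSG00000022383.13, chr15:85734983-85802819, plus strand), the receptor of fatty acid oxidation, had 2 RefSeq transcripts, NM_011144 at 45.6 CPM and NM_001113418 at 45.2 CPM. Their mean log2 CPM values were 5.51 and 5.50. The second is shorter, 2519 against 3413 bases, so its length-scaled level was 18.0 rather than 13.4 CPM per kilobase. Even by the lower value, Ppara lay above 90.6% of the 22662 genes with a matched length and above 83.3% of those with at least 1 CPM.

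Ppard (ENSMUSG00000002250.16, chr17:28232700-28301474, plus strand) encodes PPARδ, the broadly expressed form. Its single transcript, NM_011145, was listed at 9.90 CPM, or 3.02 CPM per kilobase, above 66.6% of genes with a matched length. Per kilobase the Ppara level was 4.42 times that of Ppard and 6.29 times that of Pparg. Ppara was thus the most abundant PPAR of these kidneys by a margin larger than its own 2 transcripts differed per kilobase, although no spread between kidneys was available to set beside either ratio.

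Pparg (ENSMUSG00000000440.12, chr6:115360951-115490399, plus strand) encodes PPARγ, the receptor that drives adipocyte differentiation. NM_001127330 was listed at 4.51 CPM and NM_011146 at 4.14 CPM. By their lengths of 2125 and 1767 bases these are 2.12 and 2.35 CPM per kilobase, above 60.6% of genes with a matched length by the lower value. Adipocyte markers were also detected, with 3 of 4 at 1 CPM or more. The hormone gene Adipoq was at 5.82 CPM, the lipid droplet genes Cidec and Plin1 at 4.49 and 2.14 CPM, and leptin (Lep) at 0.873 CPM. Per kilobase the 4 markers ranged from 0.268 to 4.51, a range that holds the Pparg level. Ucp1, the uncoupling protein of brown fat, was at 19.8 CPM, or 12.1 CPM per kilobase. The part of fat attached to the kidneys in the level of Pparg was not tested.

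The RXR partners were both present. Rxra (ENSMUSG00000015846.14, chr2:27676440-27762957, plus strand) had 1 transcript, NM_011305, at 37.4 CPM and 7.63 CPM per kilobase, above 83.6% of genes with a matched length. Rxrb (ENSMUSG00000039656.17, chr17:34031812-34038399, plus strand) had 5 listed transcripts between 12.6 and 12.9 CPM. NM_001205214 and NM_011306 carried the same mean to within 0.0001 log2 CPM, which also held for a pair of transcripts in 2446 of 10022 genes with more than 1 transcript. Rxrb was at 4.89 CPM per kilobase, and the Rxra level was 1.56 times as high. Rxrg, the remaining receptor of this family, was at 0.175 CPM and 0.0828 CPM per kilobase. The PPAR partner in these kidneys was therefore represented in the RNA by Rxra and Rxrb, with Rxrg below 1 CPM.

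The estrogen-related receptors were close to Ppara in level. Esrra (ENSMUSG00000024955.14, chr19:6910977-6921813, minus strand), a main partner of PGC-1α on respiratory chain genes, was listed once, as NM_007953 at 29.7 CPM and 13.3 CPM per kilobase. It lay above 90.5% of genes with a matched length. Esrrg (ENSMUSG00000026610.13, chr1:187608791-188214885, plus strand) is the form found in tissues with high oxidative demand. Its 5 transcripts, 2 from RefSeq and 3 assembled from the reads, lay between 47.6 and 48.8 CPM. The highest RefSeq form, NM_001243792, gave 10.1 CPM per kilobase over 4833 bases.

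In CPM Esrrg stood above Esrra, and per kilobase the order turned, with Esrra 1.32 times as high. The longer Esrrg transcript collects more reads at the same number of molecules, so the length-scaled order is the one to read between genes. Esrrb, the remaining receptor of the family, was at 20.5 CPM and 4.88 CPM per kilobase, close to the 4.89 of Rxrb. The 3 estrogen-related receptors were thus all above the median of 3.998 CPM per kilobase, whereas of the 3 PPARs it was Ppara alone.

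The PGC-1 coactivators stood far apart, with Ppargc1a among the highest length-scaled levels and the RefSeq transcript of Ppargc1b at the lowest. Ppargc1a (ENSMUSG00000029167.13, chr5:51454250-51567726, minus strand) encodes PGC-1α, the inducible coactivator of mitochondrial biogenesis. The coding transcript NM_008904 and the non-coding NR_027710 were both listed at 75.1 CPM, with the same mean to within 0.0001 log2 CPM. The assembled forms CUFF.27491.1 and CUFF.27491.2 were at 74.3 and 71.3 CPM. Over 6464 bases the RefSeq level was 11.6 CPM per kilobase, above 89.1% of genes with a matched length. The non-coding form had the same value as the coding one, so the table does not tell them apart.

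Ppargc1b (ENSMUSG00000033871.14, chr18:61298136-61400431, minus strand) encodes PGC-1β, the related coactivator. Its RefSeq transcript NM_133249 was listed at 4.19 CPM, or 1.15 CPM per kilobase over 3656 bases. The assembled transcripts CUFF.17222.2 and CUFF.17222.1 were higher, at 10.05 and 10.04 CPM. By RefSeq transcripts the Ppargc1a level per kilobase was 10.1 times that of Ppargc1b. A choice made after the data were seen divided the highest transcript of any kind by the longest annotated length. By it Ppargc1b was at 2.75 CPM per kilobase, beside Ppard at 2.66 and Pparg at 2.12. That length, 3656 bases, is the length of NM_133249, and the assembled transcripts had no matched length. Their own level per kilobase is thus unknown. The place of Ppargc1b at the end of the order held by the RefSeq transcript and is open for the assembled ones.

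Nrip1 (ENSMUSG00000048490.14, chr16:76287400-76373827, minus strand), the corepressor, showed the same split between transcript models. NM_173440 was at 13.5 CPM, or 2.98 CPM per kilobase over 4529 bases. The assembled CUFF.14369.1 and CUFF.14369.2 were at 30.9 and 30.8 CPM. Over the longest annotated length of 7868 bases the higher value gave 3.93 CPM per kilobase, beside 2.66 for Ppard. These assembled transcripts had no matched length either, so their own level per kilobase is unknown. By RefSeq transcripts the level of Ppargc1a was 3.90 times that of Nrip1.

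The gap between assembled and RefSeq models set Ppargc1b and Nrip1 apart from the other members. The assembled transcript was 2.40 times as high as the RefSeq one for Ppargc1b and 2.29 times as high for Nrip1. For Rxrb, Ppargc1a and Esrrg the same ratio was 0.997, 0.989 and 1.002. Over 7187 genes with both kinds of transcript and at least 1 CPM, the median ratio was 1, and 4.84% of genes had a ratio above 2. The ratio of Ppargc1b exceeded that of 96.2% of these genes, and the ratio of Nrip1 that of 96.0%. Ppara, Ppard, Pparg, Rxra and Esrra had no assembled transcript under their symbol. Of the 7 members with more than 1 transcript, 5 had transcripts within 1.2 times of each other.

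**Figure D3:**
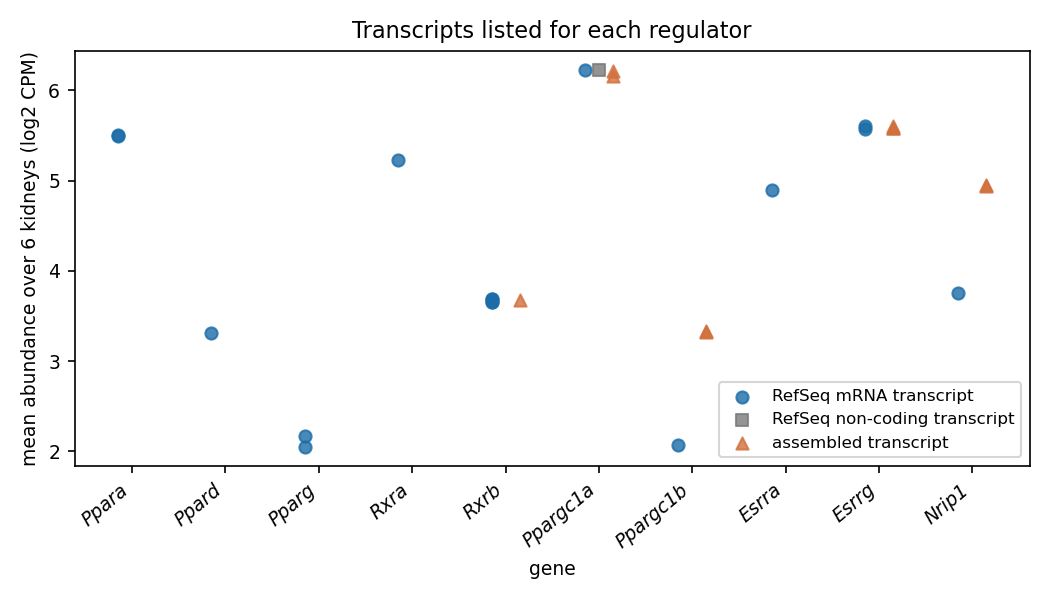
Mean abundance over 6 kidneys (y axis, log2 CPM) of each of the 27 transcripts listed for the 10 genes, by kind of transcript. The points of a gene lie together except in Ppargc1b and Nrip1, where the assembled transcripts (3.33 and 4.95) stand above the RefSeq one (2.07 and 3.76).

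Neighbours in the length-scaled order often lay close. Ppara and Esrra differed by a ratio of 1.01, Esrra and Ppargc1a by 1.14, and Ppargc1a and Esrrg by 1.15. Ppard and Nrip1 differed by 1.01. Without a spread between kidneys none of these neighbours can be ranked. The 4 highest genes were above 10 CPM per kilobase, the 4 lowest were at 3.02 or less, and Rxra and Rxrb lay between. The whole range, from Ppargc1b to Ppara, was a ratio of 11.7 by RefSeq transcripts. With the highest transcript of any kind over the longest annotated length, Pparg was the lowest and the range was 6.29. That range does not use the assembled transcripts' own lengths, which are unknown.

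The genes with which these regulators work were read in the same way, and their levels describe the kidneys rather than the activity of a receptor. Of 17 other nuclear receptors, 16 were at 1 CPM or more, with a median of 3.81 CPM per kilobase. The highest by CPM was Hnf4a, the hepatocyte and proximal tubule factor, at 192 CPM and 44.1 CPM per kilobase. Next by CPM came the vitamin D receptor Vdr at 14.9 and the glucocorticoid receptor Nr3c1 at 8.01 CPM per kilobase. The lowest by CPM were Rxrg at 0.0828, Hnf4g at 1.502 and the oxysterol receptor Nr1h3 at 3.81 CPM per kilobase. Ppara and Esrra at 13.4 and 13.3 CPM per kilobase thus lay below Hnf4a and close to Vdr. Without a spread between kidneys they cannot be ranked against Vdr.

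Of 16 other coregulators and PGC-1 partners, 15 were listed, and all 15 were at 1 CPM or more. Perm1 had no entry under that symbol. Their median was 5.10 CPM per kilobase, in a range from 1.84 for Pprc1, the remaining PGC-1 family member, to 11.0 for the corepressor Ncor1. By CPM the highest were Ncor1 at 98.7 and the acetyltransferase Ep300 at 51.4. The lowest were Nrf1, a factor of respiratory chain genes, at 8.73, Pprc1 at 9.68 and the deacetylase Sirt1 at 12.4 CPM. On the length-scaled level Ppargc1a, at 11.6 CPM per kilobase, was listed above each of these 15 genes. Ncor1 lay close, and without a spread between kidneys it cannot be ranked against Ppargc1a. Both Ppargc1b (1.15 by RefSeq) and Nrip1 (2.98) stood below the median of the 15 genes.

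Known targets of PPARα were mostly well expressed. Of 32 genes, 28 were at 1 CPM or more, and their median was 16.3 CPM per kilobase. The 3 genes with the highest CPM were Slc27a2, a fatty acid transport protein and acyl-CoA synthetase, Cyp4a14, a fatty acid hydroxylase, and Acadm, the medium-chain acyl-CoA dehydrogenase. Their length-scaled levels were 171, 75.8 and 79.4 CPM per kilobase, and Fabp3, a fatty acid-binding protein at 93.9, lay between them on that scale. Cpt1a, the rate-limiting enzyme of mitochondrial fatty acid import, was at 31.7 CPM per kilobase. The lowest by CPM and per kilobase were the hormone Fgf21 at 0.0339, the fatty acid hydroxylase Cyp4a12a at 0.0269 and the transcription factor Creb3l3 at 0.0297 CPM per kilobase. The lowest CPM listed for any transcript was 0.0263, and these genes were at 0.0322, 0.0651 and 0.0681 CPM. Their order per kilobase so near this floor should not be read. Fabp1, the liver fatty acid-binding protein, was the fourth gene under 1 CPM, at 0.695 CPM. Cpt1a, Fabp3 and Fabp1 were named after their values were seen. These 4 targets were under 1 CPM.

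Of 12 targets of PPARγ, 11 were at 1 CPM or more, with a median of 5.25 CPM per kilobase. The highest by CPM were Pck1, which the proximal tubule uses for gluconeogenesis, at 279 CPM per kilobase, the lipoprotein lipase Lpl at 36.4 and the fatty acid-binding protein Fabp4 at 134. Fabp4 is also made by endothelium, whose markers Pecam1, Kdr and Emcn were between 4.15 and 23.3 CPM per kilobase. Which cells gave the Fabp4 level was not tested. The lowest by CPM were Retn, Plin1 and Cidec, all 3 genes of fat tissue, at 0.571, 1.12 and 2.64 CPM per kilobase. Per kilobase the lipid droplet gene Plin4 at 0.95 lay below Plin1, and the glycerol channel Aqp7 at 2.36 lay below Cidec, both named after their values were seen. Pparg itself was at 2.12 CPM per kilobase.

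Targets of the estrogen-related receptors and PGC-1α had the highest median of these lists, 52.5 CPM per kilobase, and 18 of 18 genes were at 1 CPM or more. The genes with the highest CPM were the ATP synthase subunits Atp5b and Atp5a1, at 444 and 336 CPM per kilobase. The lowest by CPM were Tfb2m and Tfam, factors of mitochondrial transcription, at 7.15 and 4.28 CPM per kilobase, and Esrra, which is a target of its own pathway and a member here, at 13.3. Tfam, Tfb2m and Mfn2, a gene of mitochondrial fusion at 10.6 CPM per kilobase, were the genes of the list with a lower length-scaled level than Esrra. Mfn2 was named after its value was seen.

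**Figure D4:**
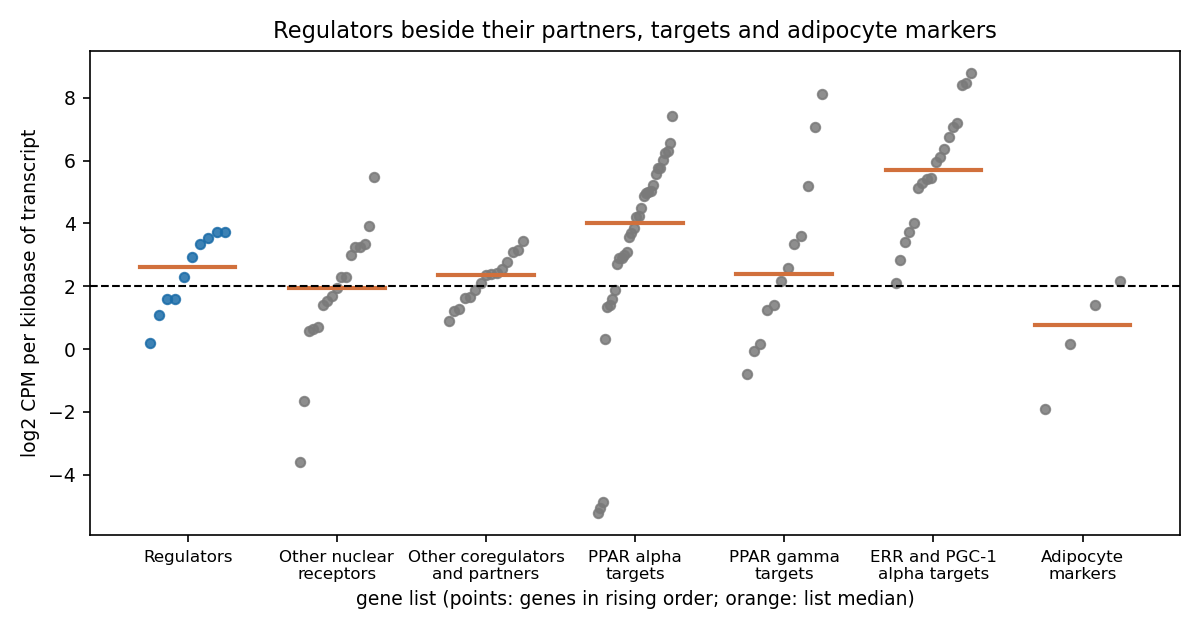
Length-scaled levels (y axis, log2 CPM per kilobase, authors' mean over 6 kidneys) of the 10 regulators and of 6 lists, with 1 point a gene in rising order, the list median in orange and the median of genes with at least 1 CPM as a dashed line. The regulators span 1.15 to 13.4 CPM per kilobase, while PPARα targets reach from 0.0269 to 171 and ERR and PGC-1α targets lie at 4.28 or above. Before division by length, the lowest PPARα targets, Fgf21, Cyp4a12a and Creb3l3, were at 0.0322, 0.0651 and 0.0681 CPM. These lie near the floor of 0.0263 CPM, which is not a value per kilobase.

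The kidney markers matched the tissue label. All 6 proximal tubule markers were at 1 CPM or more, from 11.4 to 423 CPM per kilobase, and so were all markers of the thick ascending limb, distal convoluted tubule, collecting duct, intercalated cells, podocytes, endothelium and macrophages. The 3 skeletal muscle and 3 adrenal cortex markers were all under 1 CPM, the highest being Star of the adrenal cortex at 0.892 CPM. Of the 4 adipocyte markers, 3 were at 1 CPM or more, as given above. The liver markers Alb and Apoa1 were at 13.4 and 1.4 CPM. Pkd1, the gene mutated in both groups, was at 31.8 CPM, and Mir17hg, the host transcript of the cluster, at 4.21 CPM. Both are means over the 2 genotypes, so neither checks the deletion.

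The promoters of the members were read for the letters that these receptors bind. RefSeq windows of GRCm38.p6, from 250 bases before to 50 bases after a start site, were matched for 9 of 10 members, in 17 windows. On both strands, 0 of 17 windows held the estrogen-related receptor element TCAAGGTCA, which was present in 0.423% of 32851 windows of the same length. The PPAR and RXR element, a direct repeat of AGGTCA with 1 base between the repeats, was also present in 0 of 17 windows and in 0.0396% of all windows. Such letters are rare in all promoters, so 0 matches say only that they are not in these windows. Of the 17 windows, 13 held more CpG dinucleotides than the median window, which held 7. The single windows of Ppara, Ppard and Esrra held 30, 27 and 25, and that of Ppargc1a held 5. Windows of 1 gene could differ widely, with 55 and 1 in Rxra, 2 to 44 in Pparg and 6 and 40 in Nrip1. Those of Rxrb (37 and 47) and Esrrg (15 to 22) all lay above the median.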

How the data were processed

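Total RNA of 6 mouse kidneys (3 SKO, 3 DKO) was sequenced as stranded libraries. Per the labels and the methods, the authors mapped trimmed reads to mm10 with TopHat2 2.0.12, and the processing notes also name bcl2fastq 1.8.4, Cufflinks, featureCounts, Subread 1.4.6 and edgeR 3.2.4. How a read shared by several transcripts was counted is not given in the sources used here. The labels give post-natal day 22, while the paper gives a slightly younger age.

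The deposited table holds 1 row per transcript. The column used is the authors' log2 CPM, read here as a mean over all 6 kidneys. Its header names no sample, and how the mean was formed is not given in the sources used here. Depth per kidney is thus unknown and no interval was set. The other 4 columns hold the authors' comparison of DKO with SKO (log2 fold change, likelihood ratio, p-value and false discovery rate) and were not used. No test was run.

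The log2 values were turned into CPM. A gene was given its transcript with the highest mean. For CPM per kilobase, the highest RefSeq transcript was divided by its exon length in GENCODE M21 (GRCm38, the assembly of mm10), which may differ from the models that the authors counted on. Of 23276 symbols, 97.4% had a length. Named genes of each list are the 3 highest and 3 lowest by mean log2 CPM, apart from those said to be chosen after seeing values and a few that are not reported here. The members and lists were chosen with earlier results of these data known. Seed matches were sought in GENCODE 3′-UTRs, and miRNA and promoter sequences are RefSeq's. The seed search was tested on simulated sequences with planted matches, and the percentiles on listed values of known rank. Python 3.11.15, numpy 2.4.6, pandas 2.3.3 and matplotlib 3.10.9 were used. The alternatives were summed transcripts, RefSeq mRNA only, other minimum CPM values, other lengths and other seed match lengths.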

Additional observations from a re-analysis of the deposited data

How the results depend on the processing

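The median level of the 10 genes moved from 30.3 to 50.6 CPM when the CPM of all transcripts of a gene were summed, a sum that may count a read more than once. The number of members with a miR-17 seed match moved from 1 to 0 with an 8-base match and to 4 with a 6-base match. The other alternatives kept these summaries within 1.5 times: RefSeq mRNA transcripts alone gave a median of 21.6 CPM, and the number of members at the minimum was 10 at 0.5 CPM, 9 at 5 CPM and 10 with summed transcripts. The members' median percentile of 79.7 was 63.9 among genes with at least 1 CPM. Of the single genes, 7 moved by over 1.5 times with summed transcripts, 2 with RefSeq mRNA alone (Ppargc1b to 4.19 and Nrip1 to 13.5 CPM), and 1 with the longest annotated transcript (Nrip1, to 1.72 CPM per kilobase). Leaving out each kidney in turn was not run, because the value used is a mean over the 6 kidneys. No paired analysis was possible because the value used is a mean over both groups and no test was made. The depth of each kidney is unknown, so no level has an interval.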
